A study of Mus musculus and Homo sapiens with 33 samples.

Results

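Integrins, the adaptor proteins of focal adhesions and the actin filaments they hold were followed in KPL cells, a murine lung adenocarcinoma line, after treatment to delete Lin9. The genes were chosen by symbol from the RNA count matrix. All 44 were found among its 38924 gene IDs: 11 integrin subunits, 2 integrin partner receptors, 13 adhesion adaptors and kinases, 17 genes of actin, actin-binding proteins and myosin regulation, and Srf. The comparison was between 2 groups, both of KPL cells grown in DMEM with fetal calf serum. The first had been given 4-hydroxytamoxifen (4-OHT) for 72 hours at a dose the labels write as 10 nm, which per the labels deletes Lin9, a core subunit gene of the MuvB complex. The second was the control, named EtOH in the sample descriptions. Each had 3 polyadenylated RNA libraries of 1 cell line. How 4-OHT brings about the deletion is not given in the sources used here, and no group separates the drug from the deletion. The labels do not describe the libraries as separate cultures, and p-values therefore reflect library-to-library spread alone, possibly of technical origin. The other 27 of the 33 samples are ChIP-seq and were not analysed here.

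Integrins are receptors of the extracellular matrix, each built of an alpha and a beta subunit. Talin and kindlin bind their cytoplasmic tails and activate the receptor. A layer of adaptors (vinculin, paxillin, zyxin and others) ties the receptor to actin stress fibres pulled by non-muscle myosin. The hemidesmosomal integrin, alpha 6 with beta 4, instead anchors epithelial cells to the basement membrane through keratin filaments. Many actin-cytoskeleton genes are targets of the serum response factor SRF and its MRTF coactivators, and stiff adhesions are known to promote the activity of YAP, the coactivator the study is about.

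The libraries held 5859826 to 5913942 reads, and mitochondrially encoded genes took 1.56% to 1.66% of them. Lin9 was at 18.3, 18.1 and 17.1 CPM (read counts scaled to a common library size) in the 4-OHT libraries and at 26.7, 21.3 and 27.3 CPM in the control libraries, so all 4-OHT values lay below all control values (71.1% of control, log2 fold change -0.49, SE 0.11, edgeR adjusted p = 0.0011). The count covers the whole gene and does not isolate the deleted part. Of the epithelial markers Epcam, Cdh1, Krt7, Krt8, Krt18, Krt19 and Cldn4, all 7 were expressed in every library, at a summed 6143 to 6329.6 CPM in 4-OHT and 6291 to 6377 CPM in control cells. The alveolar markers Sftpc and Sftpa1 had 0 reads in all 6 libraries and Sftpb averaged 0.113 CPM in 4-OHT and 0.0571 CPM in control cells, from 0 or 1 read in each library. All 7 alveolar markers together summed to 14.0 to 16.0 CPM in 4-OHT and 17.1 to 17.5 CPM in control cells. Lamp3 averaged 9.20 CPM in 4-OHT and 8.86 CPM in control cells. Nkx2-1 averaged 4.74 CPM in 4-OHT and 6.51 CPM in control cells, with all 4-OHT values below all control values (edgeR adjusted p = 0.20). Ager, with 4 to 5 reads per 4-OHT library and 7 to 11 per control library, was too low to test, as was Hopx. Fibroblast markers summed to 5.57 to 8.31 CPM in 4-OHT and 7.54 to 9.45 CPM in control cells over 6 genes, with Lum at 0, and 6 smooth muscle markers to 2.55 to 5.06 CPM in 4-OHT and 2.75 to 4.97 CPM in control cells. The 5 leukocyte markers, with Cd3e at 0, summed to 2.71 to 4.39 CPM in 4-OHT and 1.54 to 5.31 CPM in control cells, and 4 endothelial markers to 8.48 to 8.60 CPM in 4-OHT and 7.36 to 9.94 CPM in control cells. None of the markers outside the epithelial list was called, but most had too few reads to test. Those tested were 2 of 7 alveolar, 2 of 6 fibroblast, 1 of 6 smooth muscle, 1 of 4 endothelial and 1 of 5 leukocyte markers.

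Adhesion and actin transcripts as a whole stayed close to their control level after 4-OHT, with small shifts within the set. The 44 genes together took 2.13% to 2.17% of the reads in the 4-OHT libraries and 2.13% to 2.15% in the control libraries. This sum weighs genes by their reads, and Actb and Actg1 alone took 0.801% to 0.808% in 4-OHT and 0.799% to 0.821% in control libraries. Of the 38 genes with enough reads to test, 4 were lower in 4-OHT cells (Itgb4, Itga2, Fermt1 and Itga3), 5 were higher (Fermt2, Tagln2, Bcar1, Vcl and Actn1) and 29 were not called (two-sided quasi-likelihood F test of edgeR with Benjamini-Hochberg adjustment over 13355 genes, threshold 0.05). Among these 38, 10.5% were called lower and 13.2% higher, against 5.17% lower, 4.61% higher and 9.79% in either direction among all genes tested. The standard error of the log2 fold change had a median of 0.04 over the 38 genes and of 0.10 over all genes, so smaller changes could be called here than for most genes. The median log2 fold change was 0.03 over the 38 genes, 0.0005 over all genes tested, and the 38 estimates ranged from -0.30 to 0.24. The 2 groups did not overlap for 39.5% of the 38 genes (24.3% of all genes), 10 with 4-OHT above (12.1% of all genes) and 5 with 4-OHT below (12.2% of all genes). In bulk RNA, fewer cells of a type and less RNA per cell cannot be told apart.

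**Figure D1:**
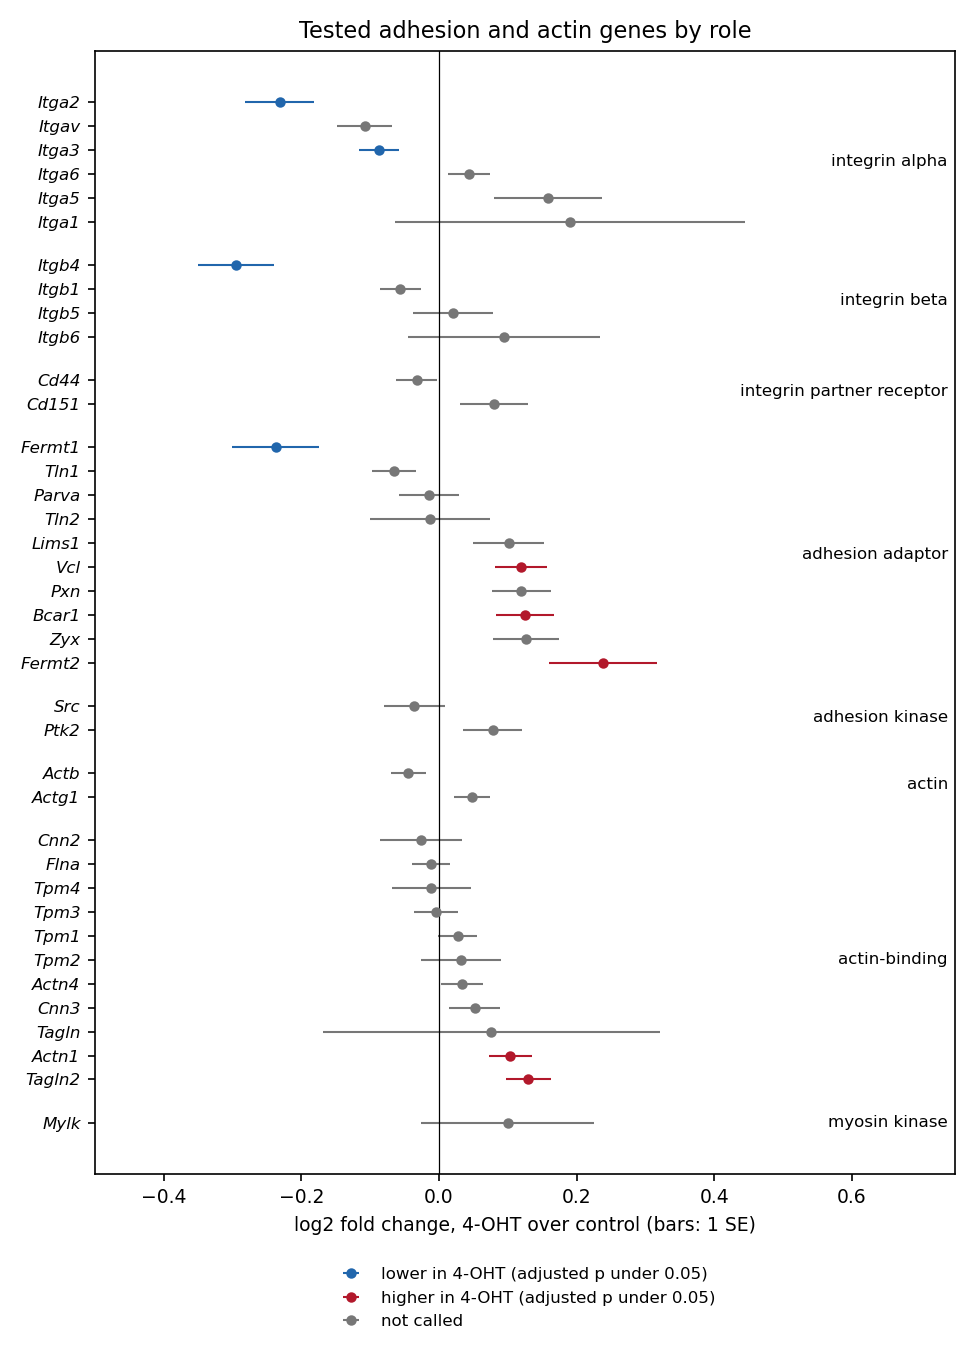
Log2 fold change of 4-OHT over control for the 38 tested genes, arranged by role, with bars of 1 SE. The 4 lower genes are integrin subunits and Fermt1, and the 5 higher genes are adaptors and actin-binding proteins, with all points between -0.30 and 0.24.

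Of 10 tested integrin subunits 3 were lower, Itgb4, Itga2 and Itga3, and 0 higher (5.17% lower and 4.61% higher among all genes), and 5 had an unadjusted p under 0.05 (21.2% of all genes). Itgb4, the beta 4 subunit of the hemidesmosome (ENSMUSG00000020758, chr11:115974725-116008412), stood at 86.7, 84.2 and 81.1 CPM in 4-OHT cells and at 104, 102 and 103 CPM in control cells. The 2 groups were well apart, and the fitted level in 4-OHT cells was 0.815 times that of control cells (0.755 to 0.879 at 2 SE either side, adjusted p = 3.3e-05). Itga6, the alpha subunit that pairs with beta 4, was at 744 ± 12.1 CPM in 4-OHT and 722 ± 9.28 CPM in control cells (SD, n = 3 each) and was not called (adjusted p = 0.44). Its groups did not overlap either, with 4-OHT above, so the estimates of these 2 partners lay on opposite sides of 0, and the difference between them was not tested.

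Itga2, the alpha subunit of a collagen receptor (ENSMUSG00000015533, chr13:114833081-114932100), had 127, 123 and 109 CPM in 4-OHT cells and 139, 145 and 138 CPM in control cells. The lowest of the 6 values was that of 4-OHT replicate 3, and the groups did not overlap (0.852 times control, 0.794 to 0.913, adjusted p = 0.00047). The Itgb4 and Itga2 calls held under all 12 alternatives tried, DESeq2 and leaving out each library among them. Itga3, the alpha subunit of a laminin receptor (ENSMUSG00000001507, chr11:95044475-95076844), was lower by a smaller margin, at 1026, 1021 and 976 CPM in 4-OHT cells against 1071, 1066 and 1076 CPM in control cells (log2 fold change -0.09, adjusted p = 0.036). That call was lost on leaving out any single library other than 4-OHT replicate 1 (adjusted p 0.060 to 0.185), with the replicate block (0.10), with library totals as the scaling (0.058), with no low-count filter (0.0501) and in DESeq2 (0.113).

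The remaining subunits were not called. Itgb1, the common partner of Itga1, Itga2, Itga3 and Itga5, averaged 779.8 ± 13.7 CPM in 4-OHT and 811 ± 15.8 CPM in control cells, with overlapping groups (0.962 times control, 0.923 to 1.00). Itgav, the alpha subunit of vitronectin and TGF-beta-activating receptors, averaged 231 ± 9.13 CPM in 4-OHT and 249 ± 10.5 CPM in control cells (adjusted p = 0.072). It passed without 4-OHT replicate 1 (adjusted p = 0.036) or without control replicate 2 (0.029). Itga5, the fibronectin receptor subunit, was at 44.6, 46.9 and 45.3 CPM in 4-OHT cells and 40.7, 43.3 and 38.6 CPM in control cells. All 4-OHT values of Itga5 were the higher ones, yet the adjusted p was 0.22. Itgb5 and Itgb6, beta partners of alpha V, had log2 fold changes of 0.02 and 0.09 and Itga1, a collagen receptor subunit with 18 to 29 reads per library, of 0.19 (SE 0.25). Itgb8, another alpha V partner, had 1, 0 and 0 reads in 4-OHT cells and 1, 4 and 3 in control cells, too few to test. Of the partner receptors, Cd44, a hyaluronan receptor, had a log2 fold change of -0.03 and Cd151, a tetraspanin that binds laminin receptors, of 0.08, neither called.

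Among adaptors and kinases, 1 of 12 tested genes was lower and 3 were higher (5.17% lower and 4.61% higher among all genes), and 7 had an unadjusted p under 0.05 (21.2% of all genes). The 2 kindlin genes of the set, whose proteins bind integrin beta tails beside talin, moved in opposite directions. Fermt1, the epithelial kindlin 1 (ENSMUSG00000027356, chr2:132904177-132946036), was at 77.3, 64.9 and 69.6 CPM in 4-OHT cells and 89.0, 83.6 and 77.1 CPM in control cells (0.848 times control, 0.777 to 0.925, adjusted p = 0.0056). The highest 4-OHT value just exceeded the lowest control value. Fermt2, the broadly expressed kindlin 2 (ENSMUSG00000037712, chr14:45458792-45530310), was at 47.3, 47.1 and 53.0 CPM in 4-OHT cells and 45.5, 42.1 and 37.2 CPM in control cells, without overlap (1.18 times control, 1.06 to 1.32, adjusted p = 0.035). The Fermt1 call was lost without 4-OHT replicate 2 or control replicate 1 (adjusted p 0.119 and 0.117), the Fermt2 call without 4-OHT replicate 2 or 3 or control replicate 2 or 3 (0.053 to 0.293), and both in DESeq2 (0.109 for Fermt1, 0.304 for Fermt2).

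**Figure D2:**
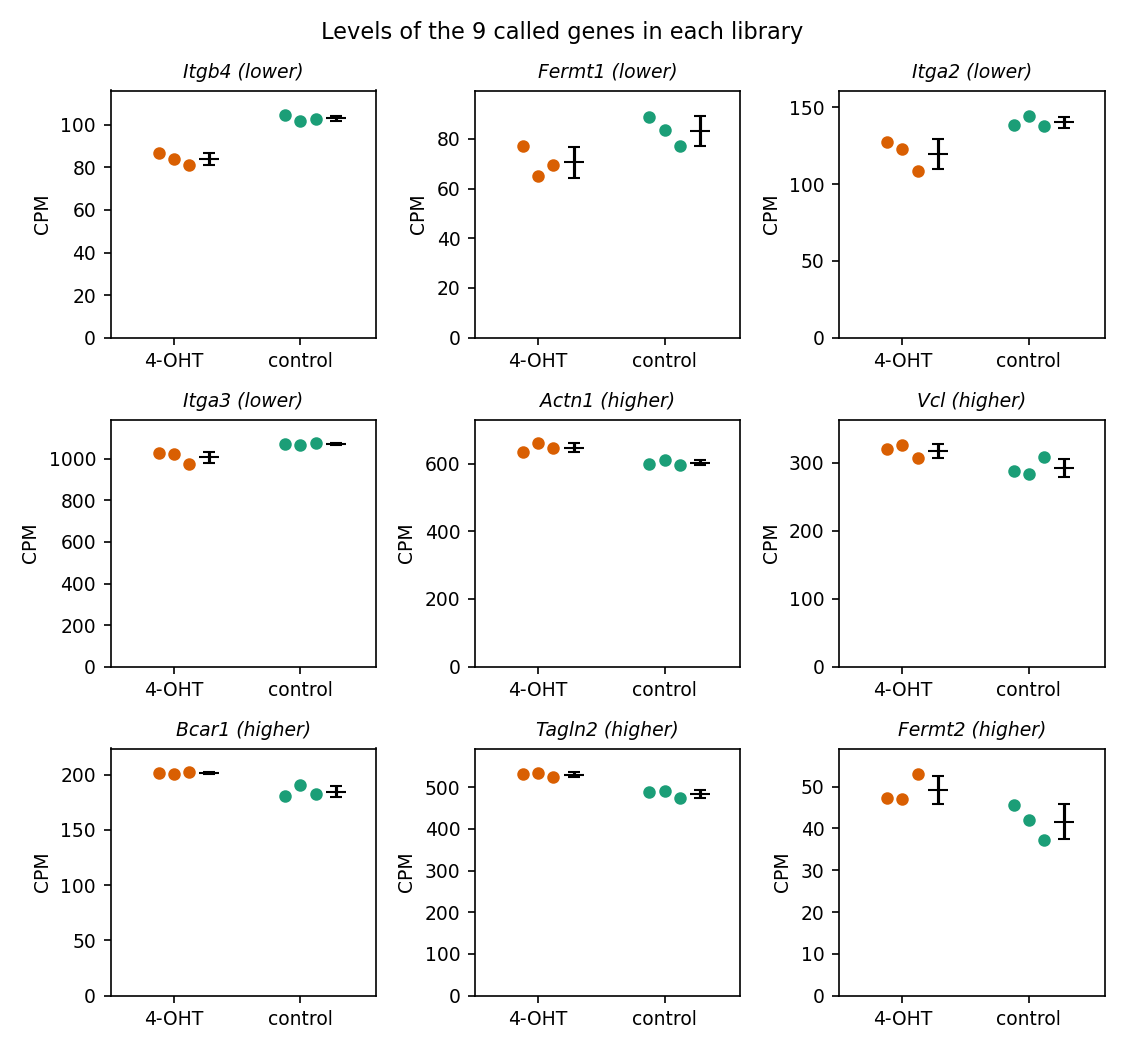
CPM of the 9 called genes in each 4-OHT and control library (points), with the mean and SD as a bar, on axes that start at 0. The groups overlap for Fermt1 and Vcl, and the shifts are small beside the level of each gene.

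Bcar1, the p130Cas scaffold that FAK and Src phosphorylate (ENSMUSG00000031955, chr8:111710474-111743849), was at 201, 200.2 and 202 CPM in 4-OHT cells and 181, 190.3 and 183 CPM in control cells. Vcl, vinculin (ENSMUSG00000021823, chr14:20929383-21033676), was at 321, 327 and 307 CPM in 4-OHT cells and 288, 283 and 308 CPM in control cells, where control replicate 3 overlapped the 4-OHT range. The fitted level of Bcar1 was 1.09 times control (1.03 to 1.16, adjusted p = 0.039) and that of Vcl also 1.09 times (1.03 to 1.14, adjusted p = 0.025). The Bcar1 call was lost on leaving out any single library other than control replicate 2 (adjusted p 0.084 to 0.187) and with the replicate block (0.052) or no low-count filter (0.063), and the Vcl call without 4-OHT replicate 1 or 2 or control replicate 1 or 2 (0.083 to 0.170). In DESeq2 the adjusted p was 0.275 for Bcar1 and 0.219 for Vcl.

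Another pair of adaptors had estimates of the same size as these and missed the threshold. Pxn, paxillin, averaged 194 ± 6.92 CPM in 4-OHT and 179 ± 6.22 CPM in control cells (adjusted p = 0.060), and Zyx, zyxin, averaged 142 ± 6.39 CPM in 4-OHT and 129.7 ± 4.66 CPM in control cells (adjusted p = 0.085). Pxn passed with library totals as the scaling (adjusted p = 0.035), and both passed without 4-OHT replicate 1 (0.032 for Pxn, 0.039 for Zyx). Ptk2, the focal adhesion kinase FAK, had a fold of 1.06 (0.995 to 1.12) and Src, its kinase partner, of 0.975 (0.918 to 1.04). The talin genes Tln1 and Tln2 had folds of 0.956 (0.915 to 0.999) and 0.991 (0.878 to 1.12), and the adaptors Lims1, which encodes PINCH, and Parva, which encodes alpha-parvin, of 1.07 (0.998 to 1.15) and 0.990 (0.932 to 1.05). None of these 6 was called.

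Of the 7 epithelial markers 3 fell and 0 rose (5.17% lower and 4.61% higher among all genes). Epcam, an epithelial adhesion molecule, was at 166, 169 and 179 CPM in 4-OHT cells and 221, 222 and 226 CPM in control cells (log2 fold change -0.38, adjusted p = 4.4e-12). Krt7, a simple-epithelium keratin, averaged 587 ± 11.1 CPM in 4-OHT and 696 ± 10.5 CPM in control cells, and Cdh1, E-cadherin, averaged 527 ± 1.67 CPM in 4-OHT and 581 ± 18.1 CPM in control cells (log2 fold changes -0.25 and -0.14). Krt8, Krt18, Krt19 and Cldn4 were not called (log2 fold changes 0.06, -0.0007, 0.04 and -0.07), and for Krt8 all 4-OHT values lay above all control values. The part of this marker shift in the integrin and kindlin changes was not tested.

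Actin itself was at nearly the same level in both groups. Actb, beta-actin, was at 5233, 5136 and 5215 CPM in 4-OHT cells and 5327, 5489 and 5258 CPM in control cells (0.969 times control, 0.936 to 1.00). Actg1, gamma-actin, was at 2839.6, 2856 and 2879 CPM in 4-OHT cells and 2731, 2797 and 2766 CPM in control cells (1.03 times control, 0.997 to 1.07). For both genes the groups did not overlap, Actb with 4-OHT below and Actg1 with 4-OHT above, and neither was called (adjusted p = 0.32 and 0.28). Together they took 0.801% to 0.808% of the reads in 4-OHT and 0.799% to 0.821% in control libraries. Actg1 has a processed copy in the matrix, Actg-ps1, at 185 ± 4.76 CPM in 4-OHT and 182 ± 3.10 CPM in control cells, and reads may have been split between the 2 genes in counting.

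Of 11 tested actin-binding genes, 2 were higher and 0 lower, where 4.61% of all genes were higher and 5.17% lower. Tagln2, transgelin 2, an actin-bundling protein of non-muscle cells (ENSMUSG00000026547, chr1:172500246-172507375), was at 532, 535 and 524 CPM in 4-OHT cells and 488, 491 and 474 CPM in control cells. The groups were clearly apart (1.09 times control, 1.05 to 1.14, adjusted p = 0.0027), and the call held under all 12 alternatives. Actn1, alpha-actinin 1, the crosslinker of stress fibres (ENSMUSG00000015143, chr12:80167542-80260420), was at 633, 660.4 and 647 CPM in 4-OHT cells and 600.1, 610.0 and 596 CPM in control cells (1.07 times control, adjusted p = 0.018). Its call was lost without 4-OHT replicate 2, control replicate 1 or control replicate 3 (adjusted p 0.087 to 0.124), with the replicate block (0.0504) and in DESeq2 (0.109). Actn4, its paralog, had a fold of 1.02 (0.981 to 1.07) and was not called.

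The tropomyosins, which wind along actin filaments and select their myosins, lay within 1.03-fold of control in all 4 genes. Tpm1 averaged 1017 ± 22.1 CPM in 4-OHT and 999 ± 12.1 CPM in control cells, and the log2 fold changes were 0.03 for Tpm1 and Tpm2, -0.0041 for Tpm3 and -0.01 for Tpm4. Tpm3 has a near-identical copy in the matrix, Tpm3-rs7, with 3305 to 3452 reads per 4-OHT library and 3271 to 3462 per control library, while Tpm3 had 3422 to 3538 reads per 4-OHT library and 3324 to 3495 per control library, so the division of reads between these 2 genes is uncertain. Flna, the actin crosslinker filamin A, averaged 2659 ± 137 CPM in 4-OHT and 2681 ± 20.7 CPM in control cells. Cnn2 and Cnn3, calponins of non-muscle cells, had folds of 0.982 (0.903 to 1.07) and 1.04 (0.985 to 1.09). The 4-OHT libraries were spread for Cnn2, at 389, 453 and 467 CPM, against 450.0, 454 and 429 CPM in control cells.

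The smooth-muscle genes Acta2, Myl9 and Tagln had few reads, like the smooth muscle markers. Acta2, smooth muscle alpha-actin, had 6 to 10 reads in each of the 6 libraries and Myl9, a regulatory myosin light chain, 1 to 5, and neither could be tested. Tagln, transgelin or SM22, was tested at 4.46 ± 1.08 CPM in 4-OHT and 4.23 ± 0.397 CPM in control cells, where the interval of the fold (0.751 to 1.48) leaves room for a sizeable change either way. Mylk, the kinase that activates myosin light chains, averaged 16.5 ± 0.983 CPM in 4-OHT and 15.4 ± 0.602 CPM in control cells and was not called (log2 fold change 0.10, SE 0.13).

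A pair of genes central to contractility could not be followed at all. Srf and Myl12a, a non-muscle myosin light chain gene, were listed at 0 reads in all 6 libraries. Both are on chromosome 17, and both lie within runs of neighbouring protein-coding genes that are all listed at 0. The run around Srf holds 17 genes between 46496789 and 46782656 (RefSeq coordinates of GRCm38.p6), from Dnph1 to Rpl7l1, and includes Mrpl2, which encodes a mitochondrial ribosomal protein, and the cullin gene Cul7. The genes on either side, Ttbk1 and Tbcc, had 14 and 517 reads over the 6 libraries. The run around Myl12a holds 5 genes between 70973963 and 71311556, among them the second non-muscle light chain gene Myl12b, and is flanked by Tgif1 with 3802 and Smchd1 with 1844 reads. Genes that most cells use are thus at 0 in these stretches, so the 0 of Srf and Myl12a is given as listed and not as a level. A count of 0 would otherwise allow up to 3 reads in a library, or 0.506 to 0.515 CPM.

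**Figure D3:**
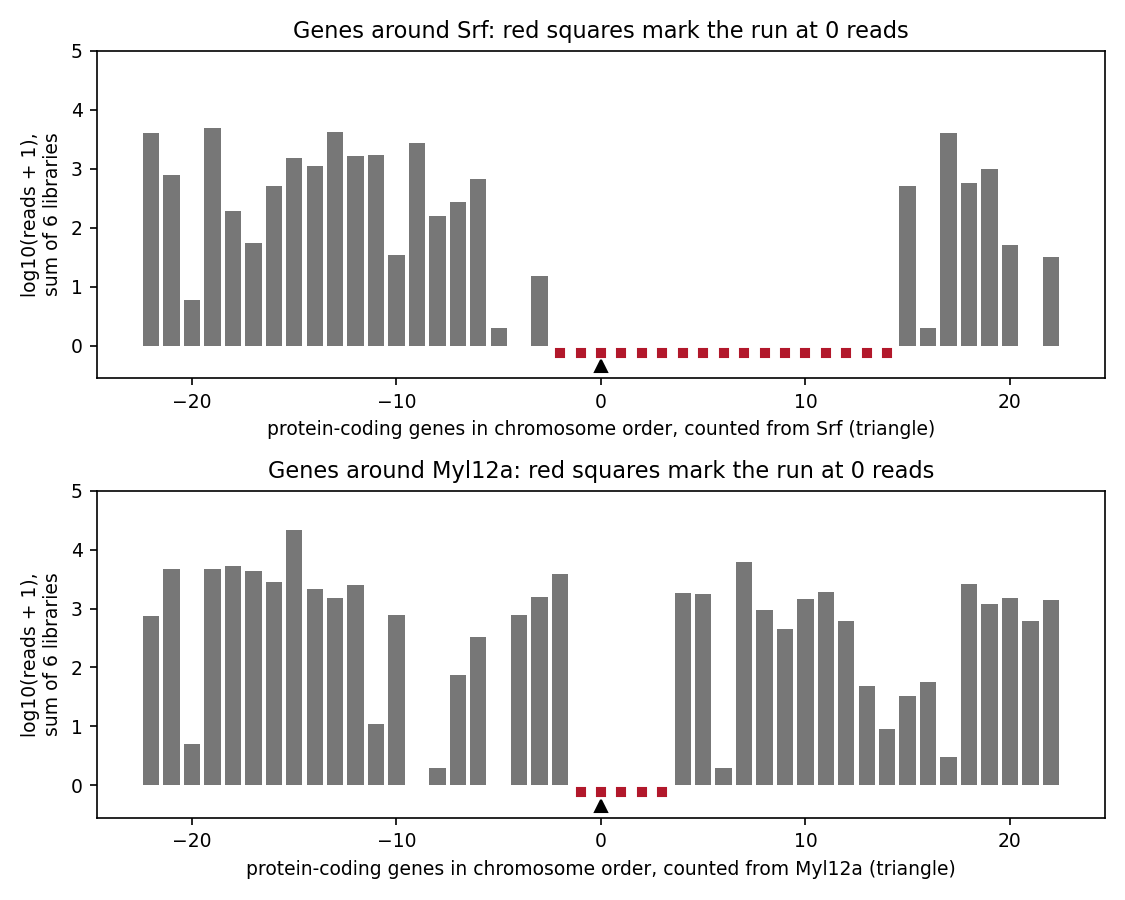
Reads summed over the 6 libraries, as log10(reads + 1), for protein-coding genes in chromosome order around Srf (top) and Myl12a (bottom). Red squares mark the 17 and 5 consecutive genes listed at 0, with counted genes on both sides.

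Ilk, the integrin-linked kinase and partner of Lims1 and Parva, was also hardly counted, with 7, 7 and 3 reads in 4-OHT cells and 3, 5 and 3 in control cells. Its annotated span of 6336 bases overlaps that of Rrp8 by 796 bases and that of Taf10 by 32 bases, and these neighbours had 1285 and 556 reads over the 6 libraries. How reads in overlapping genes were counted is not given in the sources used here. In all, 6 of the 44 genes were not tested: Itgb8, Ilk, Acta2, Myl9, Myl12a and Srf.

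Because the set joins SRF-type genes with genes of other classes, the promoters were searched for 3 motifs, the CArG box that SRF binds, the cell cycle homology element of MuvB target genes (TTTGAA or TTCGAA) and a TEAD site (GGAATG), on both strands. RefSeq windows of GRCm38.p6, 250 bases before to 50 after an annotated start, were at hand for 36 of the 44 genes. A CArG box was in a window of 7 of the 36 (19.4%), against 1.81% of all 27025 genes with a window and 1.63% of all windows. SRF-type genes were chosen for the set, and Srf itself is among the 7, so the higher share was built into the choice and is no result. The MuvB element was in 5 of 36 (13.9%, against 21.7% of all genes), and the TEAD letters in 9 of 36 (25.0%, against 16.6%). Of the 5 tested genes with a CArG box among 30 tested genes with a window, Vcl and Fermt2 were called higher, and Actg1, Cnn2 and Itgb6 were not called. Among the 38 tested genes 13.2% were called higher, and among all genes 4.61%. The calls of Vcl and Fermt2 were both lost in DESeq2 (adjusted p 0.219 and 0.304). A link between the box and the changes was not tested. Of the 4 genes called lower, Itga2, Itga3 and Fermt1 had none of the 3 motifs in a window, and Itgb4 had no window to search. So few genes allow no contrast with the genes called higher. Of the 7 tested genes with the TEAD letters, Tagln2 and Vcl were called higher, and Actn4, Flna, Itgb1, Mylk and Tpm1 were not called. The windows of the 4 CArG genes with the most reads or a call show the same element at different distances from the start. That of Tagln2, shown because its higher call held in every alternative, has 2 TEAD matches. Capitals mark the CArG box in the first 4 windows and the TEAD letters in that of Tagln2, the Vcl window also holds the TEAD letters once, left in lower case, and each window is 300 bases, 5′ to 3′ on the gene's strand.
Vcl (chr14:20929148-20929447, plus strand): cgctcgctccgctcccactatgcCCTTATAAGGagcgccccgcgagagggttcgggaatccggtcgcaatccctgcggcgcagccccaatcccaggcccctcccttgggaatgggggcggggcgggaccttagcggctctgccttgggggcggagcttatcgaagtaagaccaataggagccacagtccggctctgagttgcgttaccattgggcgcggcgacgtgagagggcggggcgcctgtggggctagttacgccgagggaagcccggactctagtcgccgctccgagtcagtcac
Fermt2 (chr14:45530016-45530315, minus strand): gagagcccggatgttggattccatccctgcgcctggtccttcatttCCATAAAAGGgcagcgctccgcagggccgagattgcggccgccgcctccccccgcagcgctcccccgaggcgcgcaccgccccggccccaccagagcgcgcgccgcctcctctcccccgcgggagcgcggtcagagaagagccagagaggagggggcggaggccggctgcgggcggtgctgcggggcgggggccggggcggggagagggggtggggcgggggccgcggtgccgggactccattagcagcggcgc
Actg1 (chr11:120348446-120348745, minus strand): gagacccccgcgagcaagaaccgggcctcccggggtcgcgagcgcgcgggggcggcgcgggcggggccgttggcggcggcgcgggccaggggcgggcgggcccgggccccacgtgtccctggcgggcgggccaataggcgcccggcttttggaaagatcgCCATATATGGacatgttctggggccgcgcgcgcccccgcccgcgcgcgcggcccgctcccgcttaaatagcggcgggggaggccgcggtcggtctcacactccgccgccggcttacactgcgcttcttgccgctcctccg
Cnn2 (chr10:79988350-79988649, plus strand): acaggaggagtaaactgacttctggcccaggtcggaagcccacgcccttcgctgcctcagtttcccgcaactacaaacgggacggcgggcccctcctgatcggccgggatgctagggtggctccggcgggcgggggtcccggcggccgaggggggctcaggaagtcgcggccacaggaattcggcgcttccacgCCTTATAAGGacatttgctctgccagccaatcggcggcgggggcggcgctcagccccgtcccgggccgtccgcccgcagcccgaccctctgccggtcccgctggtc
Tagln2 (chr1:172499996-172500295, plus strand): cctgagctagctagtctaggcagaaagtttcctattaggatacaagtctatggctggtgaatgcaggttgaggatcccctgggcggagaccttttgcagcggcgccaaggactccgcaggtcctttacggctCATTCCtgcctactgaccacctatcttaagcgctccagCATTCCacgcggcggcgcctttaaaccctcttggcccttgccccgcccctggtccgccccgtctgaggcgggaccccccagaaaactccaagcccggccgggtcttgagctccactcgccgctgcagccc

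The CArG box begins 227 bases before the start in Vcl, 204 in Fermt2, 90 in Actg1 and 56 in Cnn2. Vcl and Cnn2 carry the same letters, CCTTATAAGG, while their log2 fold changes were 0.12 and -0.03. The 2 TEAD matches of Tagln2 lie on the opposite strand (CATTCC as printed) and begin 118 and 80 bases before the start. These are letter matches in the reference and say nothing of binding in these cells.

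Of 76 tested genes in 3 further lists of the pathway, 10 were higher in 4-OHT cells and 0 lower (13.2% higher, against 4.61% higher and 5.17% lower among all genes), with a median log2 fold change of 0.04. These lists were chosen with earlier results of these data known, so their shares are no independent support. The SE had a median of 0.06 over these 76 genes and of 0.10 over all genes, so smaller changes could be called for many of them. The count of 0 depends on the threshold, since Vasp, an actin polymerisation factor of adhesions named here after its values were seen, averaged 161 ± 0.427 CPM in 4-OHT and 176 ± 11.8 CPM in control cells, with all 4-OHT values below all control values (log2 fold change -0.13, adjusted p = 0.0501). None of 10 tested further integrin subunits was called in edgeR, with 2 at an unadjusted p under 0.05, a share near the 21.2% of all genes. These 10 genes had a median of 3.02 CPM, and their SE had a median of 0.30, against 0.10 over all genes. Their log2 fold changes ranged from -0.41 to 0.60, and most of them needed larger changes for a call than most genes did. Among further adhesion components 4 of 35 were higher. Fblim1, migfilin, which links filamin to kindlin, averaged 120.5 ± 7.67 CPM in 4-OHT and 103 ± 3.70 CPM in control cells (log2 fold change 0.22, adjusted p = 0.0013). Cd9, a tetraspanin, averaged 277 ± 9.70 CPM in 4-OHT and 251 ± 4.51 CPM in control cells (log2 fold change 0.14, adjusted p = 0.0079). Rsu1, a partner of PINCH, and Crk, the adaptor of Bcar1, had log2 fold changes of 0.20 and 0.11. The Crk call was lost on leaving out any single library (adjusted p 0.065 to 0.211), with the replicate block (0.070), with RLE size factors (0.054), without a filter (0.081), with the stricter filter (0.0506) and in DESeq2 (0.283). The Rsu1 call was lost without 4-OHT replicate 1 or 2 or control replicate 1 or 3 (0.079 to 0.156), without a filter (0.0503) and in DESeq2 (0.291), and the Cd9 call without control replicate 2 (0.057) and in DESeq2 (0.104).

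Among further genes of actin contractility, 6 of 31 were higher and 0 lower, where 4.61% of all genes were higher and 5.17% lower. Cald1, caldesmon, which restrains myosin on actin, was at 570.4, 598 and 579 CPM in 4-OHT cells and 473, 464 and 479.6 CPM in control cells, a fold of 1.23 (1.18 to 1.29, adjusted p = 1.7e-12). Synpo, synaptopodin, an actin-bundling protein, was at 56.0, 48.9 and 52.6 CPM in 4-OHT cells and 38.7, 38.5 and 38.4 CPM in control cells, a fold of 1.36 (1.23 to 1.52, adjusted p = 6.0e-06). Mkl1, the SRF coactivator MRTF-A, averaged 134 ± 3.22 CPM in 4-OHT and 117 ± 2.09 CPM in control cells (log2 fold change 0.20, adjusted p = 0.0018). For these 3 genes the groups did not overlap and the calls held under all 12 alternatives. Ppp1cb, the myosin phosphatase catalytic subunit, and Cfl1, the actin-severing cofilin, had log2 fold changes of 0.15 and 0.11. Their calls were lost without 4-OHT replicate 3 for Ppp1cb (adjusted p = 0.069) and without control replicate 3 for Cfl1 (0.091). In DESeq2 the adjusted p was 0.079 for Ppp1cb. The formin Diaph3 (0.16), the myosin heavy chain Myh9 (0.02) and the kinases Rock1 (-0.03) and Rock2 (0.0011) were not called, and these 4 were named after their values were seen.

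**Figure D4:**
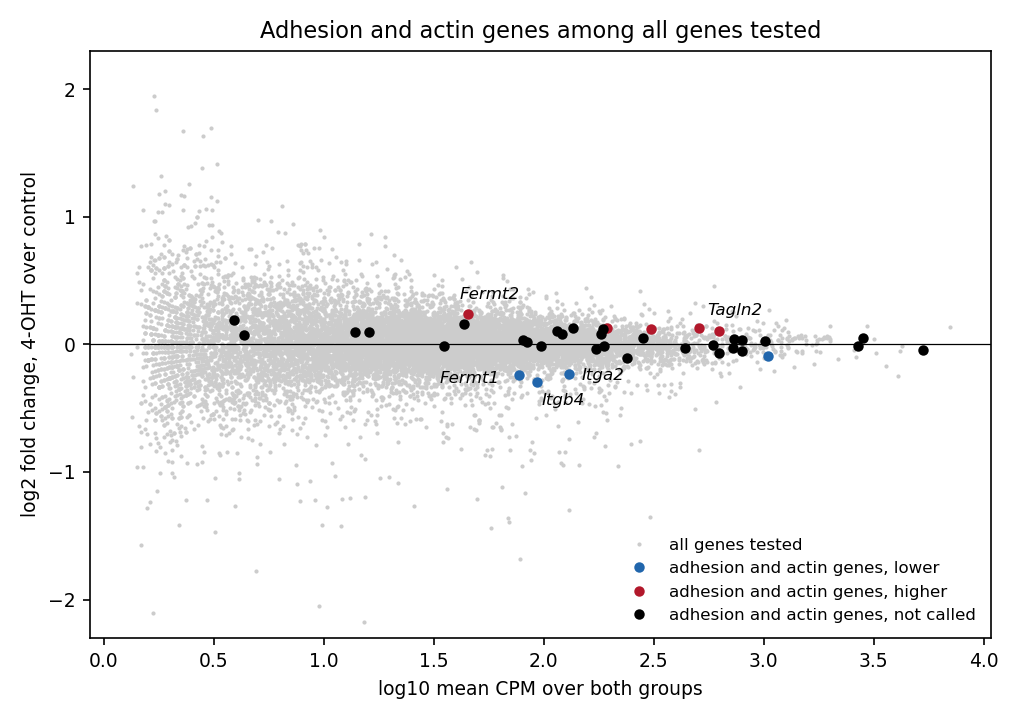
Log2 fold change against log10 mean CPM for all 13355 genes tested (grey) and the 38 adhesion and actin genes (coloured by call). The 38 genes lie close to 0 where the grey cloud reaches beyond 1 and below -1. The SE had a median of 0.04 over the 38 genes and of 0.10 over all genes, so the 2 spreads are not directly comparable.

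Across the 44 genes, the authors' deposited table lists 42 and gives an FDR under 0.05 to 5 of them. In the authors' deposited table Itgb4 (log2 fold change -0.30), Fermt1 (-0.24) and Itga2 (-0.23) were lower and Fermt2 (0.24) and Tagln2 (0.13) higher, where 3.9% of its genes were lower and 3.24% higher. DESeq2 called 2 of the 44 genes lower (Itgb4 and Itga2) and 1 higher (Tagln2), against 2.88% and 1.65% of the genes it adjusted. Without 4-OHT replicate 2 or control replicate 1 the number called lower was 2, and the number called higher was 1 without 4-OHT replicate 2, 2 without control replicate 1 or 3, and 3 without 4-OHT replicate 3 or control replicate 2. Itgb4, Itga2 and Tagln2 were called in every one of these fits.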

How the data were processed

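RNA-seq of KPL cells comprised 3 libraries of the 4-OHT group and 3 of the control, grouped by title. Per the labels, libraries were made from polyadenylated RNA with an NEBNext Ultra kit. The deposited matrix holds raw read counts per Ensembl gene. The authors' deposited comparison table holds log2 fold changes, log2 mean CPM, p-values and FDR. The submitters' processing notes name edgeR, GRCm38.p6, bedtools 2.26.0, TopHat2 2.1.0, Bowtie2 and Bowtie 1.1.2 without roles. The sources used here do not give the counter, the annotation or whether strand was used. Gene positions are those of RefSeq for GRCm38.p6.

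Of 38951 lines, 27 repeats of an ID were dropped. edgeR 4.0.16 (R 4.3.3) was run on all genes with filterByExpr (minimum count 10, total 15), TMM and the robust quasi-likelihood F test, two-sided, with Benjamini-Hochberg adjustment over 13355 genes. CPM use TMM-scaled library sizes and are not per length, so levels of different genes were not compared. Intervals are the fold at 2 SE either side. The procedure was tested on simulated counts. Alternatives were RLE factors, library totals, 2 other filters, DESeq2 1.42.0, a replicate block and leaving out each library. No libraries were merged: chi-square per degree of freedom was 1.26 to 1.48 for same-group pairs, above counting error.

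The members and lists were chosen with earlier results of these data known. Called members are given by library, and in each other list the 5 called genes with the smallest p are named. Some symbols of the other lists were matched through their Ensembl ID.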

Additional observations from a re-analysis of the deposited data

How the results depend on the processing

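Among the 38 tested genes, 416 of 456 pairs of gene and alternative stayed on their side of the threshold, 35 lost a call, 5 gained one and 0 reversed. Most of these pairs belong to the 29 genes that were not called. All 35 losses fell on the 9 called genes, of which only 3 kept their call in all alternatives. DESeq2 called 2 members lower and 1 higher, and 362 lower and 208 higher among all genes. The replicate block left 3 members higher and 3 lower. Deviations of same-numbered libraries correlated at -0.0097, 0.0096 and -0.026, so no shared deviation was seen. These values cannot tell whether the libraries were made as pairs. Leaving out 1 library gave 2 to 5 members lower, 1 to 5 higher, and 403 to 542 genes higher overall. Library totals as the scaling gave 3 lower and 6 higher members. Near-identical copies (Tpm3, Actg1), overlapping genes (Ilk) and stretches listed at 0 (Srf, Myl12a) limit single counts.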
